A study of Mus musculus with 2 samples.

Results

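IgG and IgM plasma cells of the DSS-treated mouse colon were taken as barcodes with at least 50 UMIs of the light chain constant genes (Igkc, Iglc1, Iglc2 and Iglc3), at least 2 of the 6 genes Xbp1, Sdc1, Derl3, Tnfrsf17, Prdm1 and Eaf2, and a leading heavy chain gene other than Igha with at least 20 UMIs. A UMI is a molecular tag that counts 1 captured RNA molecule. There were 106 such cells among 17858 barcodes kept at 500 or more UMIs, 200 or more genes and at most 25% mitochondrial UMIs. They comprised 31 of 9734 in the library labelled knockout and 75 of 8124 in the wild-type library, and are called members here. Because the rule reads immunoglobulin and 6 plasma cell genes, the levels of those genes describe the choice.

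Each library pooled colon cells of 3 C57BL/6 mice aged 8 to 10 weeks. The mice of the first were labelled Elf-1 KO, and those of the second were wild type (WT). Both groups had received DSS (dextran sodium sulfate), which injures the colonic epithelium, and no untreated mice were sampled. With 1 library a group and no record of which mouse a cell came from, differences carry no test: intervals are 95% exact intervals that cover counting error only.

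Plasma cells are the antibody-secreting end stage of B cells. A B cell first makes IgM and can switch to IgG or IgA by recombining its heavy chain locus, and B cells divide and mutate their antibody genes in germinal centres. Secretion depends on an enlarged endoplasmic reticulum (ER), built under the transcription factors Xbp1, Irf4 and Prdm1. In the gut IgA is the main class, joined into dimers by the J chain (Jchain), which also joins IgM, and IgG-secreting cells become more frequent in inflammation.

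The rule decides a cell's class by which of several similar heavy chain genes holds most UMIs, so the ends of the 4 IgG genes are printed to show how far they differ. Given are the last 120 coding bases of the secreted form before the stop codon, from GENCODE M21 on GRCm38, 5′ to 3′ on the minus strand. Capitals mark the 61 positions where the 4 genes are not all alike. Ighg3 lies at chr12:113359668-113359787, Ighg1 at chr12:113328979-113329098, Ighg2b at chr12:113306392-113306511 and Ighg2c at chr12:113287392-113287511.
Ighg1: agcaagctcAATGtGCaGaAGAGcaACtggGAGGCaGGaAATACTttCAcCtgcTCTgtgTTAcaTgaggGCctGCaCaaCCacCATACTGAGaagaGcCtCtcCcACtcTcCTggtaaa
Ighg2b: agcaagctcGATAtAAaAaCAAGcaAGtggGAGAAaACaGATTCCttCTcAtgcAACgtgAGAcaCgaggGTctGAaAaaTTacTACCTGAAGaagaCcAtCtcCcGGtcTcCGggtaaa
Ighg2c: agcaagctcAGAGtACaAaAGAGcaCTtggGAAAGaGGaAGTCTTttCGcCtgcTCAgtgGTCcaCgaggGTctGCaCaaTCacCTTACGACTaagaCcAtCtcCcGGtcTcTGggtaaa
Ighg3: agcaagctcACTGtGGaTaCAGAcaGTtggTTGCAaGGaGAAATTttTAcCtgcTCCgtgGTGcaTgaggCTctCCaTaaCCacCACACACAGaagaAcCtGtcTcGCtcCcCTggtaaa
Over this stretch the pairs were identical at 61.7% (Ighg2b and Ighg3) to 75% (Ighg1 and Ighg2c) of positions. The longest run of bases shared by any pair was 19, between Ighg2b and Ighg2c. The genes are therefore alike but not near-identical here. The sources used here do not give how reads matching more than 1 of them were counted, so a class rests on which gene leads.

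The libraries held 39750319 UMIs in 10012 barcodes (labelled knockout) and 32481613 UMIs in 8635 barcodes (wild type), with medians of 2679 and 2041 UMIs per kept barcode. Elf1, the gene named in the label, had 198 CPM (UMIs per 1000000 non-immunoglobulin UMIs) in the library labelled knockout and 218 in the wild-type library, and was seen in 40.4% and 39.1% of kept barcodes. Within the members it was seen in 22 of 31 cells (235 CPM, interval 173 to 311) of the library labelled knockout and in 50 of 75 (302 CPM, 260 to 350) of the wild-type library. Which part of the gene was deleted is not stated in those sources, so these counts do not check the label, and every direction below is between the libraries as labelled. The libraries shared 57 barcode sequences, of which 1 was a member in 1 of them and none in both.

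Members were rarer in the library labelled knockout, at 0.318% of kept barcodes (interval 0.216 to 0.452), than in the wild-type library, at 0.923% (0.727 to 1.16). That is a ratio of 0.345 (0.219 to 0.531), or 2.90-fold lower. Fewer such cells in the tissue and fewer recovered by digestion and capture cannot be told apart. IgA plasma cells, chosen by the same rule with Igha leading, made up 4.03% (392 cells) and 4.55% (370 cells), a ratio of 0.884 (0.765 to 1.02). Of plasma cells of any class, members were 7.33% of 423 in the library labelled knockout and 16.9% of 445 in the wild-type library. A large part of this gap lay in cells that also carried B cell genes, described next.

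Many wild-type members were not plasma cells by their other genes. UMIs of at least 2 of 6 B cell genes (among them Ms4a1, Cd22, Pax5, Bank1 and Fcer2a, referred to as B cell markers) were found in 5 of 31 members of the library labelled knockout (16.1%, 5.45 to 33.7) and in 43 of 75 of the wild-type library (57.3%, 45.4 to 68.7). Among IgA plasma cells the shares were 0.765% of 392 and 9.73% of 370. Without such cells the members numbered 26 and 32, and the ratio of their shares of kept barcodes was 0.678 with an interval that includes 1. The name plasma cell is therefore used for members without B cell markers only, and members with them are given beside these.

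The immunoglobulin share, whose genes the rule reads, had lower medians in members with B cell markers, but the ranges overlapped. In the library labelled knockout the immunoglobulin share of a cell's UMIs ran from 1.16% to 62.2% with a median of 23.3% in the 5 members with B cell markers, and from 18.4% to 80.2% with a median of 46.9% in those without them. In the wild-type library it ran from 0.733% to 66.2% with a median of 2.53% in the 43 members with B cell markers, and from 5.93% to 79.6% with a median of 55.9% in those without them. Most wild-type members with B cell markers thus sat near the bottom of the range, while a few reached the level of secreting cells. IgA plasma cells had medians of 68.4% and 66.7%.

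**Figure D1:**
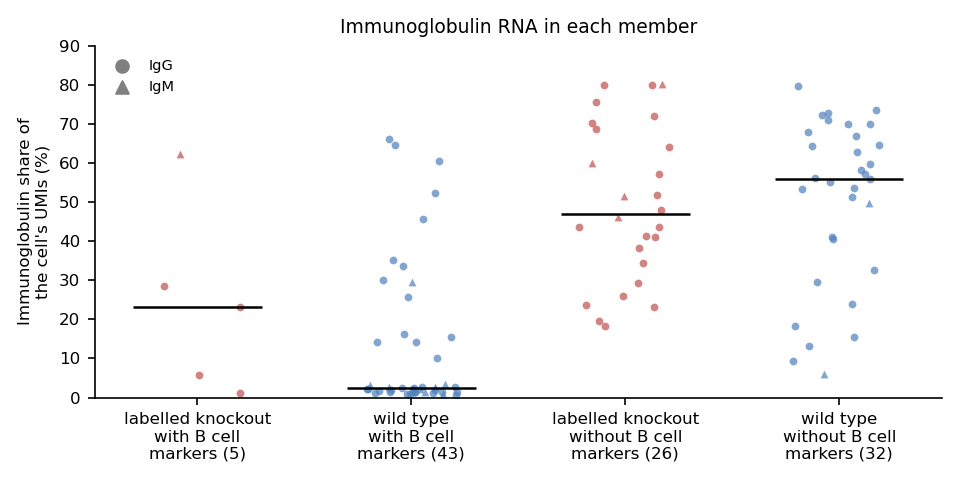
Each point is 1 member, plotted by the immunoglobulin share of its UMIs in percent, with circles for IgG and triangles for IgM, and lines at the medians. From left to right stand labelled knockout (5 cells, median 23.3%) and wild type (43 cells, 2.53%) with B cell markers, then labelled knockout (26 cells, 46.9%) and wild type (32 cells, 55.9%) without them.

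The limits of the rule cut through the wild-type cells with B cell markers. Exactly 2 of the 6 plasma cell genes were found in 5 members of the library labelled knockout and in 31 of the wild-type library, of which 1 and 25 had B cell markers. Just outside, with 1 of the 6 genes and all other limits met, were 3 and 28 cells, of which 1 and 28 had B cell markers. The leading heavy chain had 20 to 39 UMIs in 2 and 23 members, while 0 and 14 cells fell short of 20 UMIs alone. In fibroblast-like barcodes, which should make no antibody, the 99th percentile was 1 and 3 UMIs for Ighg1 and 2 and 6 UMIs for Ighm, at medians of 5860 and 4147.5 UMIs per barcode.

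The IgG classes differed between the libraries. Ighg1 led in 2 of 31 members of the library labelled knockout (6.45%, 0.791 to 21.4) and in 36 of 75 of the wild-type library (48.0%, 36.3 to 59.8). Ighg2c led in 14 (45.2%, 27.3 to 64.0) and in 17 (22.7%, 13.8 to 33.8), and Ighg2b in 9 (29.0%) and in 11 (14.7%). Ighg3 led in 1 member of the library labelled knockout and in 0 of 75 wild-type members. A floor of 3 cells puts the wild-type share at up to 4%, and its exact interval reaches 4.80%. IgG cells together were 83.9% and 85.3% of members, and the other 5 and 11 cells were led by Ighm.

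The low share of Ighg1 cells in the library labelled knockout was also seen among members without B cell markers. There it led in 2 of 26 (7.69%, 0.946 to 25.1) in the library labelled knockout and in 15 of 32 (46.9%, 29.1 to 65.3) in the wild-type library. Ighg2c led in 11 (42.3%) and in 11 (34.4%), Ighg2b in 8 and in 4, and Ighm in 4 and in 2. The intervals of the Ighg1 shares did not overlap in either set of cells, whereas those of the other classes did. Each library pools 3 mice, so how far 1 mouse sets these shares cannot be told apart from the label.

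**Figure D2:**
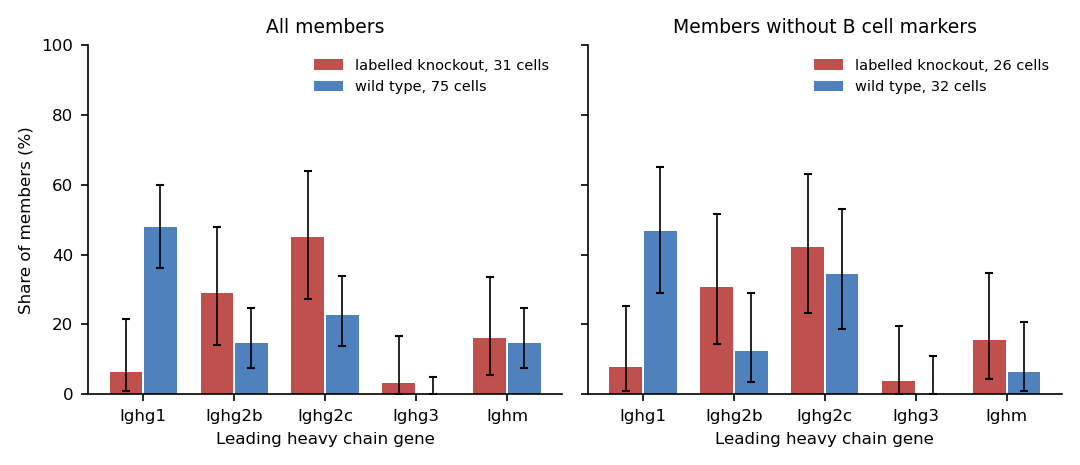
Bars give the share of members, in percent, led by each heavy chain gene in the library labelled knockout (left bar of each pair) and the wild-type library (right bar), for all members and for members without B cell markers. Lines are 95% exact intervals. Ighg1 led in 6.45% and 48.0% of all members and in 7.69% and 46.9% of those without B cell markers.

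Class assignment was cleaner in cells without B cell markers. The leading gene held at least 80% of a cell's heavy chain UMIs in 90.3% of members of the library labelled knockout and in 64.0% of the wild-type library, and in 96.2% and 93.8% of those without B cell markers. Ighd, the heavy chain that naive B cells make beside IgM, had a UMI in 0 of 31 and in 6 of 75 members. Wild-type IgM members were mostly B cell-like, 9 of 11 carrying B cell markers, against 1 of 5 in the library labelled knockout.

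Kappa light chains led in nearly all members. Lambda constant genes led in 2 of 31 members of the library labelled knockout and in 4 of 75 of the wild-type library. The 4 wild-type lambda cells were 3 Ighg1 cells and 1 Ighg2c cell. The 2 of the library labelled knockout were 1 Ighg2b cell and 1 Ighm cell, both with B cell markers. Both also held kappa RNA, with 57 and 3086 lambda UMIs beside 32 and 1321 Igkc UMIs.

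Variable genes, which the rule did not use, could be assigned to part of the members. A V gene counted as assigned with at least 3 UMIs and 66.7% of the V gene UMIs of its chain. Both chains were assigned in 17 members of the library labelled knockout, which had 17 different pairs, and in 34 wild-type members, which had 26 different pairs. In the wild-type library 7 pairs were held by more than 1 member, 15 cells in all, and the cells of each pair had the same leading heavy chain gene. Their barcodes differed at 14 or more of 27 bases, so they were not near copies of 1 barcode. A shared pair of V genes does not identify a clone, since the junctions between gene segments were not analysed here.

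The most often shared pair was Ighv1-39 with Igkv4-80, in 3 wild-type Ighg1 members that held 17, 22 and 10 UMIs of Ighv1-39 and 96, 122 and 32 UMIs of Igkv4-80. The germline variable exons of this pair are printed from GRCm38 and GENCODE M21, 5′ to 3′ on the minus strand, at chr12:114914599-114914898 and chr6:69016558-69016856. Capitals mark the last in-frame cysteine codon, where the junction with the next segment begins.
Ighv1-39: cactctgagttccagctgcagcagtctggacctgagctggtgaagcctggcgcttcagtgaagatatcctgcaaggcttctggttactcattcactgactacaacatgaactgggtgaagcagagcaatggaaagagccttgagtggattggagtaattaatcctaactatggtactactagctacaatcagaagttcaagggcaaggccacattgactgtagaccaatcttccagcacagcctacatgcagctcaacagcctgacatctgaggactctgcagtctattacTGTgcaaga
Igkv4-80: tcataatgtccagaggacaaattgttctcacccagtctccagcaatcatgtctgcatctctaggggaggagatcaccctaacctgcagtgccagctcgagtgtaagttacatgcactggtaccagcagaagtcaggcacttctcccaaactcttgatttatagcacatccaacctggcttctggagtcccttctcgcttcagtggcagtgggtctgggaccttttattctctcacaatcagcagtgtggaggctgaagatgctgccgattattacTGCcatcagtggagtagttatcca
None of the 17 members of the library labelled knockout had this pair. In all, 3 pairs occurred in members of both libraries, and 6 and 12 pairs of members also occurred in IgA plasma cells of the same library.

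Plasma cell genes differed between members with and without B cell markers more than between the libraries. Xbp1, the master factor of the secretory ER, had 1095 CPM in members with B cell markers of the library labelled knockout and 851 in those of the wild-type library. Without B cell markers it had 3849 and 3865 CPM. Jchain had 4153 and 8437 CPM with B cell markers, against 33674 and 46841 without them. Per cell, members without B cell markers held 2 to 1032 Jchain UMIs (median 127) in the library labelled knockout and 0 to 973 (median 219.5) in the wild-type library.

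Other plasma cell genes were thinly detected. Among all members Sdc1, the surface proteoglycan CD138, was seen in 18 of 31 and 33 of 75, Prdm1 in 12 and 30, and Derl3, which helps to clear misfolded ER proteins, in 22 and 39. Tnfrsf17, the survival receptor BCMA, was seen in 3 of 31 and 6 of 75 members, against 26.0% and 50.5% of IgA plasma cells. Thinned to equal UMIs per cell, as for Ms4a1 below, it was seen in 0 of 26 (0 to 13.2%) and 4 of 72 members (5.56%, 1.53 to 13.6). Thinned IgA plasma cells had 11.2% (8.03 to 15.0) and 16.7% (12.9 to 21.1), so the intervals overlapped in both libraries. Eaf2 was seen in 18 of 31 and 64 of 75; it is also made by germinal centre cells.

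Among the members, the germinal centre gene Rgs13 was found in wild-type cells with B cell markers and hardly elsewhere. Mef2b, also on the germinal centre list, was seen in 12 and 14 members without B cell markers. Rgs13, a signalling regulator of germinal centre B cells, had 0 UMIs in the 31 members of the library labelled knockout and 166 in 28 of 75 wild-type members. In the wild-type library these were 165 UMIs in 27 of the 43 members with B cell markers and 1 UMI in 1 of the 32 without them. The repressor Bcl6, which sets the germinal centre state, was seen in 1 and 22 members. The B cell surface protein CD20, encoded by Ms4a1, was seen in 6 and 49, against 0.926% and 4.42% of fibroblast-like barcodes. Members had medians of 4702 and 6901 non-immunoglobulin UMIs; thinned to 1000 such UMIs each, with 5 and 3 shallower members left out, Ms4a1 was seen in 3 of 26 and 28 of 72.

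**Figure D3:**
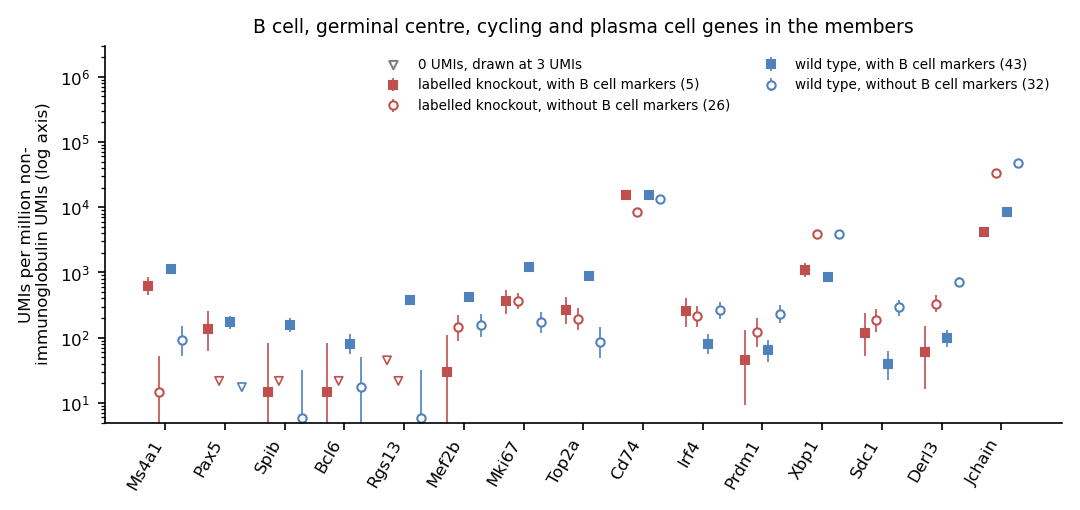
Summed levels of 15 genes, in CPM on a log axis, in members with (squares) and without (circles) B cell markers, with the library labelled knockout left of the wild type and 95% counting intervals; open triangles are genes at 0, drawn at 3 UMIs. Rgs13 was at or near 0 except in the 43 wild-type members with B cell markers, and Jchain and Xbp1 were highest in members without them.

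Within the wild-type library, members with B cell markers were set against those without, as a description, since the B cell markers chose them. Of 3266 genes compared, 28.4% were at least 2-fold higher with an interval excluding a ratio of 1, the call used throughout, and 13.5% at least 2-fold lower (median log2 ratio over all genes 0.48). All 30 cell cycle genes were higher (list median 2.69), Mki67, the proliferation antigen, by 2.81 on the log2 scale. Of 13 germinal centre genes 12 were higher, and of 11 class II MHC genes, which present antigen, 7. Of 29 ER folding genes 25 were lower (list median -1.75), and of 12 plasma cell surface and secretory genes 10. These gene lists were compiled with earlier results of the same data known.

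Comparing all members of the 2 libraries, 5.5% of 3999 genes were called higher in the library labelled knockout and 13.9% lower, at a median log2 ratio of -0.17 over all genes. The lower genes included 14 of 21 B cell identity genes (list median -1.14) and 11 of 13 germinal centre genes (-2.57), and none of either list was higher. Rgs13, at 0 in the library labelled knockout, was 18.7-fold lower at a floor of 3 UMIs summed over the group. Its interval reached down to 15.0-fold. Of 30 cell cycle genes 12 were lower (-0.92) and none higher. The share of members that had B cell markers also differed, at 16.1% and 57.3%, and its part in these values was not tested.

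Without the members that carried B cell markers, 8.36% of 1567 genes were called higher in the library labelled knockout and 9.13% lower, at a median of 0.09. Only part of the calls were shared: 37 higher genes (16.8% of those called in all members, 28.2% of those called without B cell markers) and 43 lower genes (7.75% and 30.1%). The cell cycle list turned round, with 10 of 16 genes higher, none lower, and a list median of 1.10. Rrm2, a subunit of the enzyme that makes DNA precursors, had 62 UMIs in 7 cells of the library labelled knockout and 15 UMIs in 4 wild-type cells, a log2 ratio of 2.36 (1.53 to 3.28). Mki67 had 51 UMIs in 7 cells and 30 UMIs in 6 cells (log2 ratio 1.08, 0.40 to 1.78). In the library labelled knockout 1 cell held 51.0% of the Mki67 UMIs.

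The machinery of secretion differed little between the libraries in those cells. Of 29 ER folding genes 1 was lower and none higher (list median -0.14), and that gene was Dnajb9, a cofactor of the chaperone BiP, with 160 and 431 CPM (log2 ratio -1.43, -2.19 to -0.73). Of 22 ER translocation and signal peptide genes and of 16 N-glycosylation genes none passed the call in either direction. ER-to-Golgi transport had 3 of 22 genes lower, and oxidative phosphorylation 0 of 46 in either direction. Derl3, one of the genes the rule reads, had 334 and 711 CPM. Pou2af1, a coactivator of immunoglobulin transcription, rose, with 654 and 309 (1.08).

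Heat shock chaperones were lower in members of the library labelled knockout in both sets of cells. Among members without B cell markers 8 of 16 fell and 1, Ahsa1, rose, at a list median of -0.86, against 7 of 16 lower and none higher (-0.98) in all members. Hspa1b, an inducible HSP70, had 5 UMIs in 3 of 26 cells and 98 UMIs in 14 of 32 cells, a log2 ratio of -3.98 (-5.63 to -2.70). Hspa1a had 65 UMIs in 6 cells and 359 in 20 cells (-2.15, -2.55 to -1.76), and Hsph1, an HSP70 partner, 1 UMI and 30 UMIs (-4.59, -9.94 to -2.00). IgA plasma cells of the same libraries, those with B cell markers included, gave -3.55 for Hspa1b and -2.70 for Hsph1. Of 20 chaperones 13 were lower there and none higher, where 12.1% of 6082 genes were lower and 5.41% higher.

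Interferon-induced genes were lower too. Of 7 measured type I interferon genes without B cell markers, 4 fell and none rose (list median -1.40). Ifi27l2a had 9 UMIs in 6 cells and 97 UMIs in 19 cells, a log2 ratio of -3.11 (-4.28 to -2.13). The nucleic acid sensor Zbp1 had a ratio of -1.76 and the nuclease Isg20 -1.43. In all members 2 of 10 were lower, Trim30a and Ifi27l2a, which is near the 13.9% of all genes, and in IgA plasma cells 8 of 17, beside the 12.1% given above.

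Several of the highest ratios belonged to acute phase genes. Among all members the 12 highest were Lcn2, Saa3, Serpine2, Sbno2, Fgl2, Sil1, Cxcl2, Mgp, Mt1, Mt2, Serpina3g and Tg. Saa3, an acute phase apolipoprotein, had 711 UMIs in 30 of 31 cells and 48 UMIs in 31 of 75 cells, a log2 ratio of 5.45, but 72.3% of its UMIs lay in 1 cell. Without B cell markers it had 174 UMIs in 25 of 26 cells, at most 15 in any cell, and 19 UMIs in 12 of 32 cells (3.51, 2.83 to 4.28).

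Saa3 was as widespread outside the plasma cells. It was seen in 97.2% of fibroblast-like barcodes of the library labelled knockout, at a mean of 194 UMIs, and in 36.3% of those of the wild-type library, and in 98.0% and 46.5% of IgA plasma cells. The neutrophil gene S100a8 had 78 UMIs in 23 of 26 members without B cell markers and 4 UMIs in 4 of 32 (log2 ratio 4.60), and was seen in 81.5% and 11.4% of fibroblast-like barcodes. The part of free RNA in these values was not tested.

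In 2 members of the library labelled knockout, both with B cell markers, markers of another cell type held at least 1% of non-immunoglobulin UMIs: neutrophil markers reached 3.79% in one and fibroblast markers 3.13% in the other. A single cell held 95.3% of the UMIs of Mgp, a matrix protein of stroma, whose log2 ratio of 2.77 in all members was -3.67 without B cell markers. Mt1, a metal-binding metallothionein, had 5504 and 866 CPM in all members (2.67), with 49.8% of the first in 1 cell, and 3747 and 2302 without B cell markers (0.70). Mt2 was 2.65 in all members and -0.20 without B cell markers. Without the 4 wild-type members with fibroblast markers as well, described below, Mt1 was 1.36 and Mt2 1.32, both called higher, and Mgp was 0.02. Sbno2 and Fgl2 were called in both sets, at 3.04 and 2.90 and at 3.02 and 2.40, although 76.5% of the Fgl2 UMIs of members without B cell markers lay in 1 cell.

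The 12 lowest among all members included Dck, Rgs2, Spib, Cd22, Bfsp2, Adamdec1, Scimp, Lrmp, Rgs13, Hsph1 and Mtmr14, several of them genes of B cells. Rgs2, a regulator of G protein signalling, had 3 UMIs in 3 of 31 cells and 266 UMIs in 42 of 75 (log2 ratio -4.90, -7.19 to -3.34), and was also lower without B cell markers (-3.83, 3 and 53 UMIs). Spib, a B cell transcription factor, had 1 and 69 UMIs (-4.54, -9.87 to -2.02), and Dck, a nucleoside kinase, 1 and 100 (-5.08, -10.40 to -2.57).

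**Figure D4:**
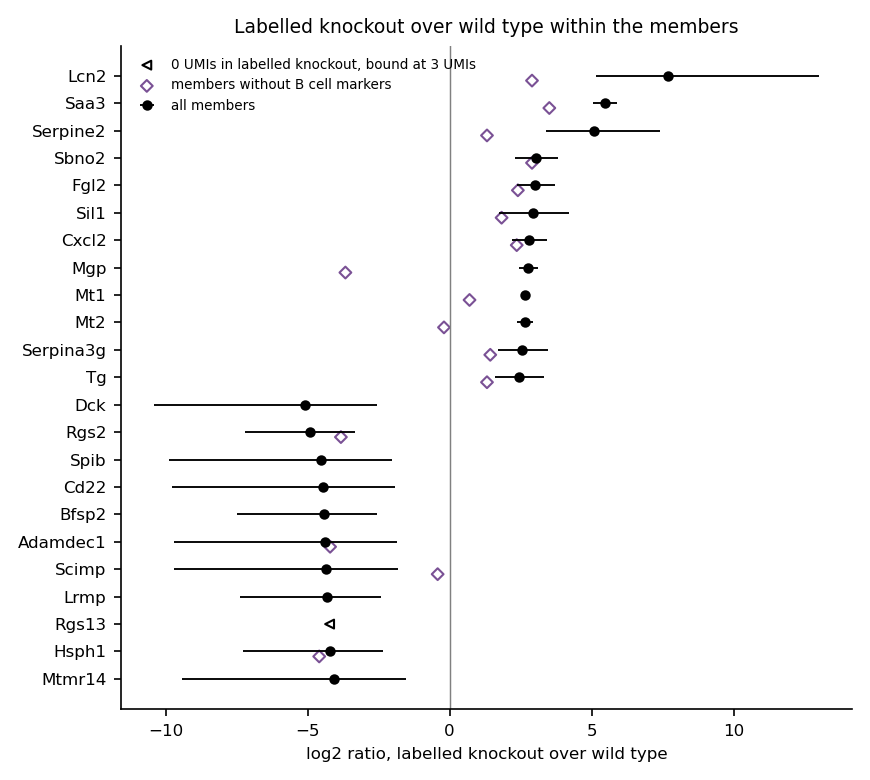
The 12 highest genes and 11 of the 12 lowest genes among those called, as log2 ratios of the library labelled knockout over the wild type with 95% counting intervals (black, all members) and, where a value could be given, without cells with B cell markers (open diamonds). Saa3, Sbno2, Fgl2, Rgs2 and Hsph1 lay on the same side in both, while Mgp stood at 2.77 and -3.67.

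Among members without B cell markers the lowest ratios included stroma and complement genes. The 12 lowest were Vcam1, C1s1, Bgn, C1ra, Hsph1, Gsn, Sfrp1, Ereg, Hspa1b, Col18a1, Rgs2 and Serping1. All 7 measured fibroblast markers were lower as well (list median -2.06), with 133 and 709 UMIs summed over the 10 markers of the list and at most 0.975% and 3.31% of a cell's non-immunoglobulin UMIs. In the wild-type library 4 of 32 such members had 1% or more from fibroblast markers, and these were left out in turn. Without them 9.2% of 1402 genes were called higher in the library labelled knockout and 7.13% lower. Of the 12 lowest, Hspa1b was called still, at -3.68. The other 11 had under 30 UMIs left and were no longer compared. Of these, 6 had log2 ratios below 0: Hsph1 (-4.74), C1s1 (-2.79), Bgn (-2.57), Rgs2 (-2.30), Gsn (-1.36) and Serping1 (-1.30). Col18a1 stood at 0.02 and Ereg at 2.34, with 5 UMIs and 1 UMI, so that Ereg turned round, and Vcam1, C1ra and Sfrp1 had too few UMIs for a ratio. Of the heat shock list 7 of 14 genes fell in these cells (-0.89) and of the interferon list 4 of 6 (-1.36), beside the 7.13% of all genes. A few wild-type cells, for example 1 with 83.6% of the Ereg UMIs, held much of this RNA.

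The highest, beside Saa3, Sbno2, Fgl2, Rrm2 and Cxcl2, were Tmem192, Ccnb1, Lig1, Nop56, Ncaph2, Nsmce4a and Nasp. Most of these serve DNA replication or division: Ccnb1 (cyclin B1) had 27 and 7 UMIs (2.26, 1.03 to 3.71), Lig1 (DNA ligase 1) 31 and 9 (2.10, 1.00 to 3.36) and Nasp (a histone chaperone) 34 and 11 (1.95, 0.93 to 3.07). In IgA plasma cells the same genes stood at -1.49, -1.04 and -0.79, the other way round. Those values include IgA cells with B cell markers (0.765% of them in the library labelled knockout and 9.73% in the wild-type library). The sets of cells compared are therefore unlike. Without the 4 wild-type members with fibroblast markers, 6 of 16 cell cycle genes were higher and 1 lower, at a list median of 0.80, beside 9.2% and 7.13% of all genes.

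Against IgA plasma cells of their own library, 4.82% of 4899 genes were called higher in members of both libraries and 1.92% lower. These included 28 of 29 cell cycle genes and 5 of 8 class II MHC genes higher, and 6 of 16 plasma cell surface and secretory genes lower. Mki67 had 367 CPM in members and 86.3 in IgA cells of the library labelled knockout, and 925 and 186 in the wild-type library. Ms4a1 was highest of the named genes, at log2 ratios of 4.10 and 3.68, but 72.7% of its 44 UMIs in members of the library labelled knockout lay in 1 cell. The other 9 highest were Nusap1, Ckap2l, Cenpe, Pclaf, Hist1h1b, Cenph, Hpf1, Tpx2 and Kif20a, mostly genes of mitosis and replication.

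The lowest in both libraries were Plin2, Smpdl3a, Ccl6, Metrnl, Cdkn1a, Serpina3f, Atp1b1, Cxcl5, Idh1 and Plaur. Cdkn1a, the cell cycle inhibitor p21, had 24.5 CPM in members and 167 in IgA cells of the library labelled knockout, and 23.1 and 154 in the wild-type library. Markers of another cell type reached 1% of non-immunoglobulin UMIs in 2 of 31 and 6 of 75 members, against 86 of 392 and 54 of 370 IgA plasma cells. Without these cells and those with B cell markers, Cdkn1a, Serpina3f and Atp1b1 were called lower in both libraries, with values given below, and the other 7 were not. Metrnl (-1.39) and Plaur (-1.18) were called in the library labelled knockout and Smpdl3a in the wild-type library, each with 0 UMIs in those members. Plin2 was at -1.05 and -0.03, Ccl6 at -0.79 and -0.55, Idh1 at -2.09 and -0.93 and Cxcl5 at -0.68 and 0.30, none of them called in either library. Values for 0 UMIs, which include Plin2 and Ccl6 in the wild-type library, are bounds at a floor of 3 UMIs over the group.

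Without cells with B cell markers on either side, 1.37% of 4512 genes were called higher than in IgA cells in both libraries and 1.06% lower, and 65 genes were called in opposite directions in the 2 libraries. Cell cycle genes no longer stood out in the wild-type library: 1 of 22 measured in both, Pclaf, was called higher in both, while in the library labelled knockout 25 of 27 were higher (list median 2.22) and in the wild-type library 1 of 22 (0.29). Of all genes, 12.3% were higher and 7.69% lower in the library labelled knockout, and 6.53% and 5.58% in the wild-type library. Genes of the secretory ER were called instead. Of 31 ER folding genes 6 were higher in both libraries and none lower: Fkbp11, Hsp90b1, Mzb1, Erp29, Ppib and Manf. The medians of this list were 0.65 in the library labelled knockout and 0.83 in the wild-type library, beside 0.27 and 0.10 over all genes compared.

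Mzb1, an ER protein that helps to fold IgM, had 7102 CPM in members and 2387 in IgA cells of the library labelled knockout (log2 ratio 1.57, 1.47 to 1.67), and 9455 and 3479 in the wild-type library (1.44, 1.36 to 1.52). Hsp90b1, the ER chaperone GRP94, had 8235 and 3860 (1.09) and 11932 and 3454 (1.79). Fkbp11, a prolyl isomerase of secretory cells, had ratios of 2.26 and 1.62. Of 19 N-glycosylation genes 3 were higher in both, the oligosaccharyltransferase subunits Ddost, Tmem258 and Ostc, and none lower. IgA cells held more immunoglobulin RNA, and the scaling moved these ratios. Scaled to all UMIs, the median over all genes in cells without B cell markers was 0.71 in the library labelled knockout and 0.20 in the wild-type library. With TMM scaling it was -0.09 and -0.12. Both scalings were planned for all members, but their use on this set of cells was chosen after seeing the data. Higher in both libraries were then 11 of the 31 ER folding genes when scaled to all UMIs and 4, Fkbp11, Mzb1, Erp29 and Manf, with TMM scaling, and none was lower under either.

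Jchain was lower in members than in IgA cells of both libraries, with 33674 and 132402 CPM in the library labelled knockout (log2 ratio -1.98) and 46841 and 122381 in the wild-type library (-1.39). Tnfrsf17, one of the genes the rule reads, was also lower, at -1.76 (-3.66 to -0.38) and -2.32 (-3.77 to -1.18). Thinned to equal UMIs per cell as for Ms4a1 above, it was seen in 0 of 21 (0 to 16.1%) and 4 of 29 members (13.8%, 3.89 to 31.7). Thinned IgA cells, those with B cell markers included, had 11.2% (8.03 to 15.0) and 16.7% (12.9 to 21.1). The intervals overlapped in both libraries, so the thinned shares do not resolve a difference. Ccr10, the receptor that guides IgA plasma cells to mucosal epithelium, had 4 UMIs in 3 members and a ratio of -1.62 (-3.51 to -0.24) in the library labelled knockout, and 1 UMI and a ratio of -4.72 (-10.02 to -2.23) in the wild-type library. Cxcr3, a receptor for interferon-induced chemokines, had 75.8 CPM in wild-type members and 8.1 in IgA cells of that library (3.23, 2.08 to 4.34). Of 18 homing and adhesion receptors measured in both libraries, none was called higher in both, and 1, Ccr10, was called lower.

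Of the single genes, Pon3, Oosp1, Cd52, Mef2b, Cks1b, Cnot11, Il10, Mad2l1, Neil1 and Rpa2 were highest in both libraries. Cd52, a small glycoprotein of lymphocyte surfaces, had 922 CPM in members and 218 in IgA cells of the library labelled knockout (log2 ratio 2.08), and 2227 and 552 in the wild-type library (2.01). Pon3, a lactone-cleaving enzyme, was higher by 3.53 and 2.15, with 7 of 26 and 24 of 32 members holding a UMI. Mef2b, a transcription factor of germinal centre B cells, was higher by 1.95 and 2.17, in 12 and 14 members that lacked B cell markers. Il10, the anti-inflammatory cytokine, was higher by 1.77 and 2.16, but 81% of its 21 wild-type UMIs came from 1 cell.

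The lowest were Lgals3, Atp1b1, Plaur, Ptgs2, Ubxn2a, Emp1, S100a6, Serpina3f, Cdkn1a and Nupr1, several of them known from epithelium or myeloid cells. Lgals3, the lectin galectin-3, had 1 UMI in members and 339 in IgA cells of the library labelled knockout (-4.76, -10.07 to -2.27), and 15 and 2075 in the wild-type library (-3.41). Without cells holding 1% or more of other cell types' markers it was at -4.18 and 0.18. Under the same limit S100a6 was at -2.55 and -0.59, while Atp1b1 (-4.76 and -2.04), Cdkn1a (-1.53 and -2.17), Serpina3f (-2.41 and -3.20) and Ubxn2a (-2.58 and -2.63) were called in both libraries still. Those limits also left Cd52 (2.01 and 1.79), Pon3 (3.39 and 1.86) and Mef2b (1.42 and 1.84) called, but not Il10 in the wild type (-0.13).

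**Figure D5:**
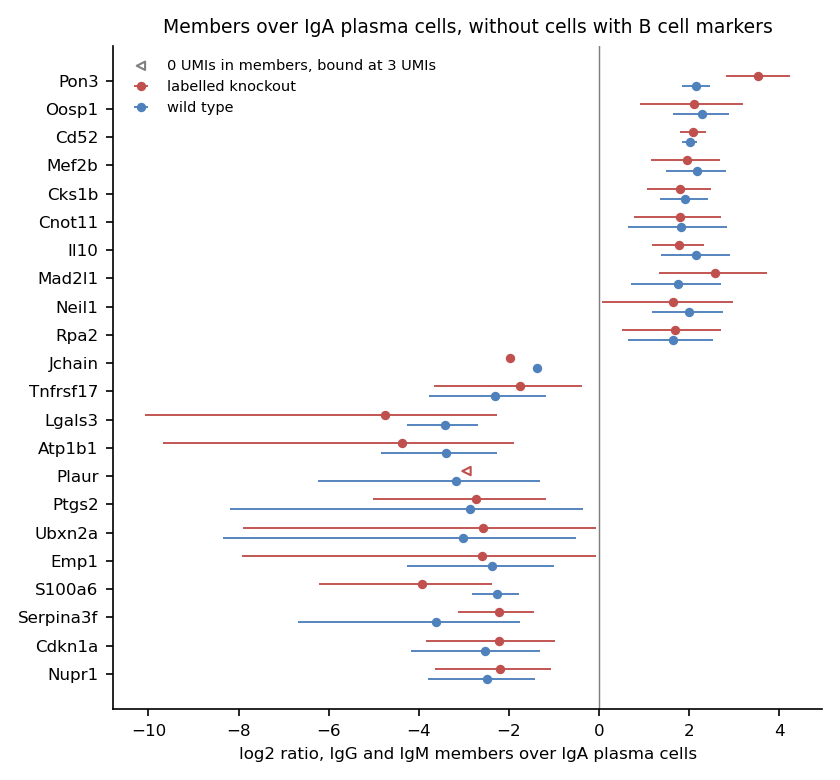
Log2 ratios of members over IgA plasma cells, both without cells with B cell markers, for the 10 highest and 10 lowest genes called in both libraries, with Jchain and Tnfrsf17 between them. The library labelled knockout stands above the wild type and lines are 95% counting intervals, so that Cd52 lies at 2.08 and 2.01 and Lgals3 at -4.76 and -3.41.

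IgG and IgM members were set side by side as values, since there were 5 and 11 IgM cells. In the library labelled knockout Jchain had 22383 CPM in IgG cells and 48834 in IgM cells, and in the wild-type library 20000 and 15287. Of the 1329 Jchain UMIs of the wild-type IgM cells, 1 cell held 973, and the median cell had 16. Mki67 was seen in 10 of 26 IgG and 2 of 5 IgM members of the library labelled knockout, and in 35 of 64 IgG and 10 of 11 IgM members of the wild-type library. The immunoglobulin share had a median of 41.1% in IgG members and ran from 46.0% to 80.2% in IgM members of the library labelled knockout. In the wild-type library the medians were 29.8% and 2.82%. By median the share was thus larger in IgM than in IgG members of the library labelled knockout. It was smaller in the wild-type library, where 9 of 11 IgM members carried B cell markers against 1 of 5. The UMIs of the leading heavy chain had medians of 1299 in IgG and 1275 in IgM members of the library labelled knockout.

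Slpi, an inhibitor of neutrophil proteases, was singled out after its values were seen, because IgG and IgM members differed in it. IgG cells had 9385 CPM in 20 of 26 cells of the library labelled knockout and 11115 in 48 of 64 cells of the wild-type library. IgM cells had 0 UMIs in 5 cells (which allows up to 234 CPM) and 1323 in 4 of 11 cells. Within members without B cell markers it had 10174 and 26254 CPM, with 0 to 336 (median 4.5) and 0 to 1273 (median 44.5) UMIs per cell, a wide spread in both libraries. IgA plasma cells without B cell markers had 5331 and 4304.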

How the data were processed

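Single-cell RNA of the colon was captured on Singleron GEXSCOPE chips in 1 library per group, each pooled from 3 mice. The authors deposited UMI counts per gene and barcode without normalization; the submitters' processing notes name cutadapt 1.17, STAR 2.6.1a, featureCounts 2.0.1 and GRCm38, with no statement of how multimapping reads were counted. All values were computed from these deposited counts with Python 3.11.15, scanpy 1.11.5, scipy 1.17.1 and, for TMM scaling, edgeR 4.0.16 in R 4.3.3, used for its scaling factors only.

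Members were found by the rule given above, without removing doublets; scrublet called 260 barcodes in the library labelled knockout and 2 in the wild-type library, where the 374 highest-scoring were taken instead, and leaving these out removes 0 and 7 members. UMIs were summed over cells and divided by the non-immunoglobulin UMIs, since antibody RNA fills much of a plasma cell. Ratios have exact conditional binomial intervals and shares exact Clopper-Pearson intervals, at 95%; they cover counting error only, not mice. A gene was compared when listed in both files with at least 30 UMIs and a UMI in 10% of cells of one side, and called at 2-fold or more with an interval excluding 1. A sum of 0 was set to 3 UMIs for a bound.

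Named were, by the fixed rule, the 12 highest and 12 lowest called genes between libraries and the 10 highest and 10 lowest against IgA plasma cells by the smaller of the 2 libraries' log2 ratios, without immunoglobulin, mitochondrial, ribosomal, haemoglobin, sex-linked, predicted and other cell types' marker genes, together with rule genes, markers and extremes of lists. Some genes that the rule names are not reported here. Members and lists were chosen with earlier results of these data known. Fibroblast-like barcodes were barcodes other than plasma cells with UMIs of at least 4 of Col1a1, Col1a2, Col3a1, Dcn and Lum. The ratio step was checked on simulated counts. Alternatives are named in the closing section.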

Additional observations from a re-analysis of the deposited data

How the results depend on the processing

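No paired analysis was possible because each group has 1 library. Values for IgG against IgM members were not recomputed, as IgM cells were under 20 in each library. The share of members stayed lower in the library labelled knockout under every alternative run, at ratios from 0.345 to 0.493 except for 0.543 with at least 100 heavy chain UMIs, 0.678 without cells with B cell markers and 0.775 without those and cells with 1% or more of other cell types' markers, with intervals that include 1 for the last 2. The last set, like the one without other cell types' markers alone, was chosen after seeing the data. The wild-type IgG share was 95.3%, 93.8% and 96.4% under these 3, and 93.8% with a leading heavy chain at 80%.

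Counts of genes called (higher and lower between the libraries, then higher and lower in both against IgA cells) were 220, 555, 236 and 94. They became 130 and 260, with 54 lower against IgA, at 200 light chain UMIs; 128, 222, 150 and 46 at 3 of the 6 genes; 127, 136, 98 and 44 at 100 heavy chain UMIs; 122, 169 and, higher against IgA, 135 at 80%. They were 131, 143, 62 and 48 without B cell markers and 129, 100, 74 and 32 without other markers too. Scaling to all UMIs gave 113, 891, 981 and 21, moving the medians by -0.28, 0.61 and 0.58, and TMM 129 and 167 against IgA, moving them by -0.02, -0.34 and -0.21. A mean over cells gave 872 lower genes, thinning to 500 UMIs 15, 21, 15 and 11 (fewer UMIs), a 10 UMI minimum 394 higher, and IgM members alone 74 and 95.

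Genes named in the comparisons of all members turned sign in 15 cases. Without B cell markers these were Mgp (-3.67) and Mt2 (-0.20) between libraries and, against IgA in the wild type, Ckap2l (-1.55), Cenpe (-0.95), Hpf1 (-0.42), Tpx2 (-0.49) and Kif20a (-1.35). Without other markers Plaur (0.021) turned, and without both Ckap2l (-0.78), Cenpe (-0.37), Tpx2 (-0.037), Kif20a (-0.86) and Cxcl5 (0.30). Mtmr14 (0.12) and Ccl6 (0.056) turned as a mean over cells. Of the genes named without B cell markers, leaving out other markers too turned Ereg (2.34) and Col18a1 (0.02) between libraries, and against IgA Lgals3 (0.18) and Il10 (-0.13) in the wild type and Nupr1 (0.06) in the library labelled knockout. The cause was not tested.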

Other observations

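The lambda V gene Iglv1 was read in cells whose light chain is kappa, meaning that lambda genes held under 10% of light chain constant UMIs. At least 3 Iglv1 UMIs were found in 23 of 28 such kappa members of the library labelled knockout (82.1%) and in 29 of 51 of the wild-type library (56.9%), and in 67.7% and 78.1% of kappa IgA plasma cells. Over those cells Iglv1 UMIs were 2.23 and 1.23 times the lambda constant UMIs in members, against 0.0229 and 0.00960 times in the 2 and 4 lambda-led members. Of the 4 wild-type lambda-led members 3 were led by Iglc2 and 2 were assigned Iglv3, so their ratio is not one of cells using Iglv1 only. Summed Iglv1 UMIs exceeded the lambda constant UMIs in the kappa cells of members and of IgA plasma cells, but not in the lambda-led cells.

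A pair of members without any of the 6 B cell markers held much light chain and little heavy chain RNA. One cell of the library labelled knockout had 3337 light chain UMIs and 25 of Ighg2b, and one wild-type cell had 4197 light chain UMIs and 43 of Ighg1, with 5 and 6 of the 6 plasma cell genes detected. Over the 25 and 38 members with at least 1000 light chain UMIs, the median heavy to light chain ratio was 0.613 and 0.580. Among IgA plasma cells with at least 1000 light chain UMIs, 0 of 287 and 3 of 290 had under 10% as many heavy chain UMIs. No heavy V gene could be assigned in either cell, while the light V genes were Igkv10-96 and Igkv1-88.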
